A study of Homo sapiens with 20 samples.

Results

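The members described here are 10 genes that encode AP-1 and immediate early transcription factors, namely FOS, FOSB, FOSL1, FOSL2, JUN, JUNB, JUND, ATF3, MAFF and BATF3. They were taken as a named list that was chosen with earlier results of these data known. Every CUT&RUN peak that overlapped a gene body or the 10 kb to either side of it was assigned to that gene. This gave 24 of the 12171 peaks in 4 lists, which merge into 15 separate sites, and 8 of the 10 genes had at least 1 peak. In CUT&RUN a nuclease is brought to the protein by its antibody and cuts out the chromatin around it. The assay was done in A498 cells, a line from clear cell renal cell carcinoma (ccRCC), with an antibody to BMAL1, the E-box binding partner of CLOCK, to HIF2α, the hypoxia-inducible factor that accumulates in this tumor type, or with IgG. All cells carried a lentiviral construct under puromycin selection and expressed either a scramble shRNA (shCNT, genotype WT in the labels) or an shRNA against BMAL1 (shBMAL1, labelled as BMAL1 knockdown). The 20 libraries form 6 groups, and 1 peak list for each of the 4 BMAL1 and HIF2α groups was analysed, so no value below has a replicate and no difference between lists was tested.

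AP-1 is a dimer of basic leucine zipper proteins. Jun proteins pair with themselves or with Fos proteins, and the dimers bind the palindromic AP-1 site. ATF3, BATF3 and the small Maf protein MAFF are related zipper proteins that share partners with them. Most of these genes are immediate early genes: serum, growth factors and stress induce their transcription within minutes and without new protein synthesis, through elements close to the start and in distal enhancers. Hypoxia response elements, with the core ACGTG or GCGTG, are bound by HIF2α with its partner ARNT, and the E-box CACGTG that BMAL1-CLOCK binds contains this core.

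The sequences that carry the results are shown first, on the plus strand of GRCh37, with matches to the AP-1 site (TGAGTCA or TGACTCA), the cyclic AMP response element (TGACGTCA), the E-box, the hypoxia core and the CArG box of serum response factor in capitals. The first is the middle of the strongest site at any of the 10 genes, in a FOSL2 intron (chr2:28632203-28632436). The second is the AP-1 match beside the FOSL2 start (chr2:28615717-28615746). The third is the region upstream of JUN around its HIF2α summit (chr1:59249804-59250003). The next is a CArG box at the edge of the JUNB site that all 4 lists called, inside the shBMAL1 BMAL1 peak alone (chr19:12900752-12900781). After these comes the E-box of the JUNB downstream site (chr19:12907263-12907292). The last are the regions around the summits at JUND (chr19:18392504-18392703) and MAFF (chr22:38598577-38598776).
FOSL2 intron: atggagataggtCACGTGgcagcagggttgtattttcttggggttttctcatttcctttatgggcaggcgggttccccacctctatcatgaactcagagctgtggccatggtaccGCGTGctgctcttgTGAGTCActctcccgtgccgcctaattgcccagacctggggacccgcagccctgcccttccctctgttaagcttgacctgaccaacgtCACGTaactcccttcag
FOSL2 start: gtgccattgtagTGACTCAtctcgggcaga
JUN upstream: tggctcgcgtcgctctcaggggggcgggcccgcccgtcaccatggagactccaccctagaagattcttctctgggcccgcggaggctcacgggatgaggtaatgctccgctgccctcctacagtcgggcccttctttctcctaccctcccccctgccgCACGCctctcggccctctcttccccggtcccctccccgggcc
JUNB upstream CArG: cttcctgtgcCCTAATATGGgcggcgggga
JUNB downstream E-box: tacaaattttacCACGTGcatggtgatctg
JUND start: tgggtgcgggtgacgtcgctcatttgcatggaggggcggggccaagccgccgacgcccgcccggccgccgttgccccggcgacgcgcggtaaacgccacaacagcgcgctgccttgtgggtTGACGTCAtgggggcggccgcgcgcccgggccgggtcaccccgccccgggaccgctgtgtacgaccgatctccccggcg
MAFF start: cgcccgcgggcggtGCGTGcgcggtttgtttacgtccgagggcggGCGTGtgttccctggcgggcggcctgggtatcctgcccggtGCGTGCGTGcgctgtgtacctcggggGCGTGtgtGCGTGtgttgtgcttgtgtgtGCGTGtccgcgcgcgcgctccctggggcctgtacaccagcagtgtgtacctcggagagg

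The lists differ in size and depth, which bears on every absence below. For BMAL1 there were 2350 peaks in shCNT and 4261 under shBMAL1, and for HIF2α 2361 and 3199. The BMAL1 list of the cells labelled as knocked down is therefore the longer of the pair, despite that label. The length of a list does not measure BMAL1, and the level of BMAL1 protein in these cells is not analysed here. The pileup, the count of fragments that cover a summit, was recovered from the deposited fold and p-value. Genome-wide background was 0.168, 0.0839, 0.209 and 0.109 fragments per position in the same order. At that background the smallest pileup that passes the caller's p-value limit of 1e-05 was 4 with shCNT and 3 with shBMAL1, for either antibody, and more were needed where the local background was higher. A missing peak therefore means too few fragments for the background of that place, which for these sites may be more than 4, and not that the protein was absent. Height below is the pileup divided by the genome-wide background of its list, and percentile is the place of a peak's −log10 p within its list, from 0 for the weakest to 100 for the strongest. Pileups of 3 to 33, as found here, have wide counting error, and intervals below cover this error alone, since amplified copies of 1 fragment are not separate events.

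Peaks were found at 8 of the 10 genes, with the strongest ones for HIF2α at FOSL2 and JUN. In shCNT, HIF2α peaks lay at 3 of the 10 genes (FOSL2, JUN and JUNB; Wilson 95% interval 10.8 to 60.3%), where 11.4% of 20090 protein-coding genes had one in the same window. BMAL1 peaks lay at 2 (JUNB and ATF3; interval 5.67 to 51%), against 12.9% of genes. Under shBMAL1 both antibodies had peaks at 5 genes (interval 23.7 to 76.3%), HIF2α at FOSL2, JUN, JUNB, JUND and MAFF, and BMAL1 at FOSB, FOSL1, FOSL2, JUNB and ATF3, against 13.6% and 18.6% of genes. The share with a peak in any list was 80% for the 10 genes (interval 49 to 94.3%) and 30.9% for protein-coding genes, although the median window of the 10 genes was shorter, at 27.9 kb against 47.3 kb. FOSB and FOSL1 entered this share through 1 shBMAL1 BMAL1 peak each, nearest to the start of ERCC1 and of CCDC85B. The any-list share by nearest start was not computed. JUNB alone was called in all 4 lists, as were 2.54% of protein-coding genes. The intervals for the single lists included the share of all genes in 2 of 4 cases, the shCNT lists, and lay above it in both shBMAL1 lists. Because the 10 genes were chosen with earlier results known, a share above that of all genes may follow from the choice. This was not tested. The excess for shBMAL1 BMAL1 was smaller under stricter settings. With lists of equal length 2 genes remained in the count (20%, interval 5.67 to 51%), against 11.9% of genes. With a −log10 p of at least 8 the count was also 2 (20%), against 11.7%. With a pileup of at least 5 it was 3 (30%, interval 10.8 to 60.3%), against 12.6%. For shBMAL1 HIF2α 4 genes were counted at equal length (40%, interval 16.8 to 68.7%), against 10.6%, and 3 with a −log10 p of at least 8 (30%, interval 10.8 to 60.3%), against 8.29%. A pileup of at least 5 also left 3 genes in that list (30%), against 9.54%. FOS and BATF3 had no peak in any list.

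**Figure D1:**
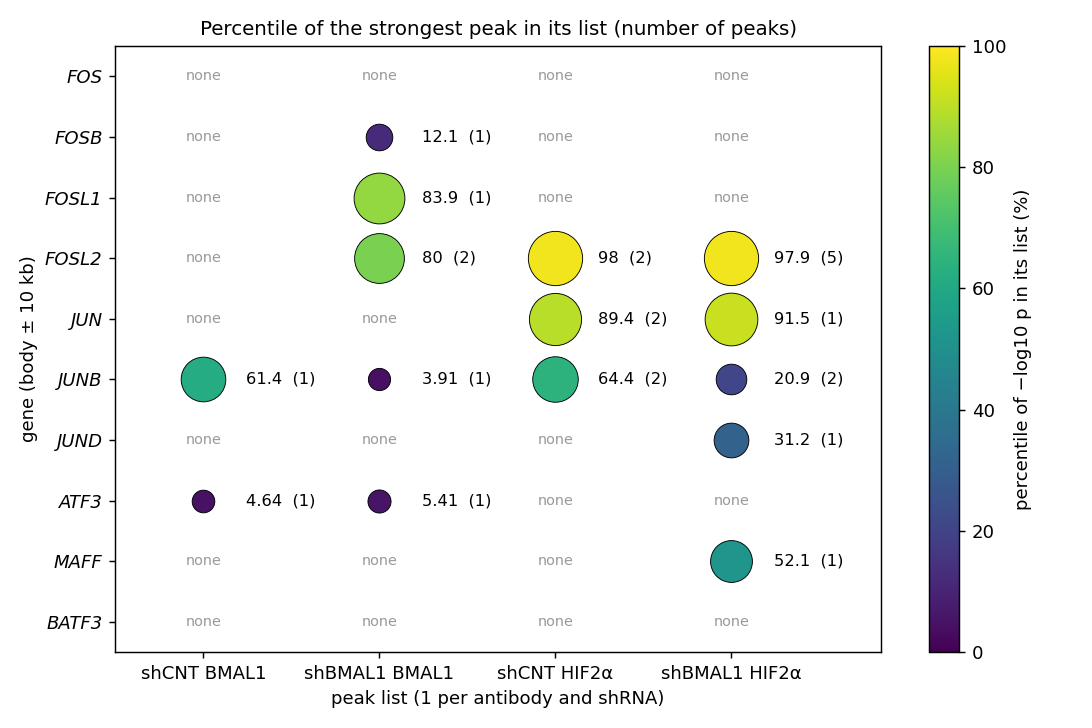
Strongest peak at each of the 10 genes (rows) in each of the 4 lists (columns); colour, circle size and the number give its percentile of −log10 p in its list, and the number of peaks is in brackets. FOSL2 and JUN have HIF2α peaks above the 89th percentile in both shRNAs, while the BMAL1 peaks at JUNB and ATF3 in shCNT are at 61.4 and 4.64.

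Among the 15 sites, 8 were called for HIF2α and not BMAL1, 4 for BMAL1 and not HIF2α, and 3 for both. By shRNA, 8 sites were called under shBMAL1 alone, 2 in shCNT alone and 5 in both. These splits were not counted over all merged sites. The shBMAL1 lists are longer and call at fewer fragments, so the numbers describe these sites and are not a trait of the genes. A single list held 9 of the sites, 4 were in 2 lists, 1 in 3 and 1 in all 4. A summit lay within 1 kb of a start of the gene itself at 5 sites. By peak this was 8 of 24, while 36.1% of all peaks lay within 1 kb of a start of any gene, a wider measure. The placement is therefore not read as particular to these genes. At 3 sites the nearest protein-coding start belonged to a neighbour.

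FOSL2 encodes Fra-2, a Fos family protein that dimerizes with Jun proteins, and it held 9 of the 24 peaks. Its strongest site lay in an intron, 16652 bp after the start of the canonical transcript, and was called for HIF2α in both shRNAs. The shCNT peak (chr2:28631861-28632610) had a pileup of 33, a fold enrichment of 25.9 and a −log10 p of 55.8, which ranked 48 of 2361 (percentile 98.0). The shBMAL1 peak (chr2:28632051-28632643) had a pileup of 22, a fold enrichment of 19.5 and a −log10 p of 39.7, rank 68 of 3199 (percentile 97.9). The place of this site in its list was thus nearly the same with either shRNA. Its height was 158 in shCNT and 202 under shBMAL1, a ratio of 1.28 (exact interval 0.71 to 2.26), so counting error alone covers a ratio of 1. Neither BMAL1 list had a peak there. At the height seen for HIF2α, the BMAL1 lists would have shown 26.5 fragments in shCNT and 16.9 under shBMAL1. The limit was 4 in both, from the local background scaled to the depth of these lists. Such values take both antibodies to raise a bound site to the same height. That was not tested, so they do not show that BMAL1 was absent.

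The FOSL2 intron site held an E-box, an AP-1 site and 2 further hypoxia cores, all shown above. The AP-1 site (TGAGTCA) lay 42 bp from the shCNT summit, and the hypoxia cores outside the E-box lay 57 bp before and 45 bp after it. The E-box lay 160 bp from that summit. This was the strongest of the 15 sites, and the E-box there was in neither BMAL1 list.

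At the FOSL2 start a second site (chr2:28615528-28616195) was called in 3 lists. The pileup was 17 for HIF2α in shCNT (percentile 84.4), 6 for HIF2α under shBMAL1 (percentile 59.0) and 7 for BMAL1 under shBMAL1 (percentile 80), and shCNT BMAL1 had no peak. The 3 summits lay 6 bp and 146 bp before and 27 bp after the canonical start, the last in the untranslated region, with the antisense gene FOSL2-AS1 on the other strand. HIF2α height was 81.3 in shCNT and 55.0 under shBMAL1, a ratio of 0.677 (exact interval 0.218 to 1.80). The AP-1 match TGACTCA lay 13 bp from the shCNT summit, and a hypoxia core lay 56 bp upstream of that summit.

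The other 3 FOSL2 sites were called under shBMAL1 alone. An upstream site (chr2:28614531-28614810) had a pileup of 4 for HIF2α (percentile 20.9) and 3 for BMAL1 (percentile 0.481), the latter being rank 4221 of 4261. Intron sites 4018 and 14002 bp after the start had HIF2α pileups of 7 (percentile 38.3) and 8 (percentile 78.5) and no BMAL1 peak. Neither of these intron sites held an AP-1, E-box or hypoxia match. With all 5 sites together, FOSL2 had 7 HIF2α peaks and 2 BMAL1 peaks, and both BMAL1 peaks came from the list labelled shBMAL1.

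JUN, the founding member of the Jun family and the usual partner of Fos proteins, carried HIF2α peaks and no BMAL1 peak. The site upstream of its start was wide in shCNT, 1478 bp (chr1:59249861-59251338), and 407 bp under shBMAL1 (chr1:59249653-59250059). Pileups were 17 and 12, ranks 251 of 2361 and 260 of 3199, and percentiles 89.4 and 91.5. Summits lay 185 and 292 bp upstream of the JUN start, the latter in an exon of a lncRNA gene on the same strand. Height was 81.3 in shCNT and 110 under shBMAL1, a ratio of 1.35 with an exact interval of 0.59 to 3.01, which includes 1. The merged site held 7 hypoxia cores, 1 of them within 100 bp of either summit, and no exact AP-1, E-box or CArG match. Variants of the AP-1 site were not sought, so the site may still hold one. At the height of HIF2α, BMAL1 would have shown 13.7 fragments in shCNT and 9.24 under shBMAL1, if both antibodies raised a bound site equally, which was not tested. A weaker HIF2α peak in shCNT (chr1:59245875-59246012, pileup 5, percentile 22.3) lay 3811 bp after the start, in an intron of a longer JUN transcript. An AP-1 match was within 100 bp of its summit, though outside the peak itself.

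JUNB, a Jun family member that can restrain JUN activity, carried the 1 site that all 4 lists called. It lay upstream of the JUNB start, 1405 bp from it at the shCNT HIF2α summit, and inside an intron of the neighbour HOOK2, which runs on the other strand (chr19:12900731-12901159). BMAL1 pileups were 6 in shCNT (percentile 61.4) and 3 under shBMAL1 (percentile 3.91). HIF2α pileups were 8 in shCNT (percentile 64.4) and 3 under shBMAL1 (percentile 1.34). Both antibodies thus had fewer fragments and a lower place in the list under shBMAL1. Relative to background, BMAL1 height was 35.7 and 35.8, a ratio of 1.00 (exact interval 0.162 to 4.69), and HIF2α height 38.3 and 27.5, a ratio of 0.719 (exact interval 0.123 to 3.00). With 3 to 8 fragments, neither interval separates loss from no change. The merged site held 1 hypoxia core and 1 CArG box, the element through which serum response factor acts at immediate early genes, and no E-box. The hypoxia core lay inside all 4 peaks. The CArG box lay inside the weak shBMAL1 BMAL1 peak alone.

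A site downstream of JUNB (chr19:12906799-12907296), also in a HOOK2 intron, was called for HIF2α in both shRNAs with pileups of 8 (percentile 64.4) and 4 (percentile 20.9) and for BMAL1 in neither. Height was 38.3 and 36.7, a ratio of 0.959 (exact interval 0.211 to 3.58). It held an E-box 280 bp from the shCNT summit and 1 other hypoxia core 96 bp from it. The E-box lay outside the shBMAL1 peak.

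**Figure D2:**
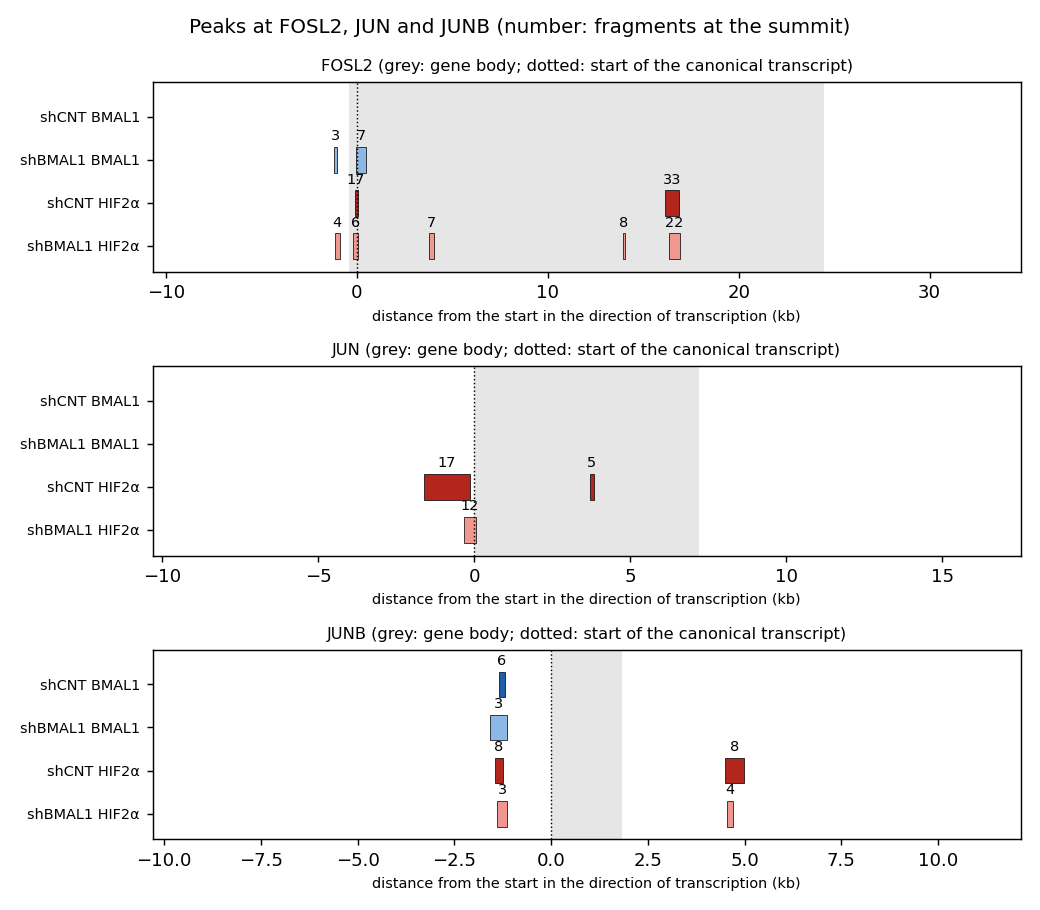
Peaks of the 4 lists along FOSL2, JUN and JUNB, by distance in kb from the start of the canonical transcript in the direction of transcription (grey, gene body; dotted line, start; number above a bar, fragments at the summit). The FOSL2 intron peaks of 33 and 22 fragments appear in the HIF2α rows alone, and the upstream JUNB peak appears in all 4 rows.

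JUND and MAFF each had 1 peak, for HIF2α under shBMAL1. JUND, the Jun protein that is expressed in most resting cells, had a peak 172 bp upstream of its start (chr19:18392532-18392737) with a pileup of 4 and a percentile of 31.2. The sequence TGACGTCA lay 24 bp from its summit and 2 hypoxia cores 117 and 130 bp from it. MAFF, a small Maf protein that lacks a transactivation domain, had a peak 676 bp after its canonical start and 350 bp from another MAFF start (chr22:38598590-38598814), with a pileup of 5 and a percentile of 52.1. The GCGTG form of the hypoxia core occurred 8 times in that peak, 7 of them in the window printed above. The summit lay in an exon of another MAFF transcript and, on the other strand, in an intron of PLA2G6.

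ATF3, a stress-induced repressor and activator, FOSB and FOSL1 had BMAL1 peaks and no HIF2α peak. The ATF3 peak under shBMAL1 (chr1:212781698-212781827) lay 404 bp upstream of the canonical start with a pileup of 6, but its local background of 0.589 fragments held its fold enrichment at 4.41 and its percentile at 5.41. The ATF3 peak in shCNT (chr1:212798192-212798411, pileup 4, percentile 4.64) lay in a coding exon of GARIN4, 415 bp from the GARIN4 start. The FOSB peak (chr19:45980664-45980847, pileup 3, percentile 12.1) lay in an ERCC1 intron, 1410 bp from an ERCC1 start. The FOSL1 peak (chr11:65657896-65658130, pileup 7, percentile 83.9) lay 162 bp from the CCDC85B start and 9877 bp from the FOSL1 start. Of the 8 BMAL1 peaks at the 10 genes, 3 were thus nearest to the start of another gene, while all 16 HIF2α peaks were nearest to the start of a member. Peaks of the same site were counted separately here. The same shares were not counted over all genes, so this is not read as a difference between the antibodies.

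Just outside the 10 kb limit lay 11 peaks, at 5 of the genes. Just inside it, the member peaks farthest from a gene body were the shCNT ATF3 peak, at 4.07 kb, the 2 peaks downstream of JUNB, at 2.67 and 2.73 kb, and the FOSB peak, at 2.23 kb. FOS, the prototype immediate early gene, had HIF2α peaks upstream of its body in both shRNAs, 19.2 kb away in shCNT (pileup 10, percentile 57.5) and 19.6 kb away under shBMAL1 (pileup 5, percentile 15.9). BATF3 had peaks about 18.5 kb downstream of its body, for HIF2α in shCNT (pileup 7) and under shBMAL1 (pileup 6, 18.4 kb) and for BMAL1 under shBMAL1 (pileup 4, 18.7 kb). FOSB had an upstream site 11.6 kb from its body, in an ERCC1 intron, called for BMAL1 in shCNT (pileup 8, percentile 79.4) and under shBMAL1 (pileup 5, percentile 27.6) and for HIF2α in shCNT (pileup 4, 11.8 kb). An AP-1 match lay within 100 bp of each of its 3 summits, and an E-box within 100 bp of 2 of them.

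Whether the shRNA changed the calls was read from matched peaks, those that overlap by at least 1 bp. For HIF2α, 5 of the 6 shCNT peaks were also called under shBMAL1 (83.3%, Wilson interval 43.6 to 97.0%), against 55.8% of all shCNT HIF2α peaks, a share within that interval. With lists of equal length, or with a pileup of at least 5, the count was 3 of 6 (50%), against 51.1% and 54.9% of all. The exception was the weak JUN peak 3811 bp after the start. For BMAL1, 1 of 2 shCNT peaks was also called under shBMAL1 (50%, interval 9.45 to 90.5%), against 47.1% of all. In the other direction, 10 peaks were called under shBMAL1 and not in shCNT with the same antibody. The same share over all shBMAL1 peaks was not counted, and the shBMAL1 lists are the longer for each antibody. The count is therefore not read as particular to these genes. At equal height all 10 would have reached the shCNT limit, with 6.01 to 15.3 fragments against limits of 4 to 8 at their local background, scaled to the depth of that list. Among peaks called in both shRNAs, however, heights were larger under shBMAL1. The median ratio was 2.00 over 1106 BMAL1 and 1.53 over 1318 HIF2α peaks. These peaks passed both limits, and the lowest callable height is itself larger under shBMAL1, for BMAL1 35.8 against 23.8 in shCNT. Where several shBMAL1 peaks overlapped a shCNT peak, the highest was taken. How far the limits and this choice raise the medians was not tested, and the medians do not describe all sites. Scaled by these medians, 7 of the 10 would still have reached the shCNT limit. The BMAL1 peaks at FOSB, upstream of FOSL2 and upstream of ATF3 would not, the last with 6.01 fragments against a limit of 8. The 2 peaks called in shCNT alone would have missed the shBMAL1 limit at equal height, with 2.00 fragments at ATF3 and 2.61 at JUN, against a limit of 3. Scaled by the medians both would have reached it, with 4.00 and 3.99 fragments. All 6 height ratios at the members, 0.677 to 1.35, lay under the median of their antibody. For HIF2α the 2 strongest, in the FOSL2 intron and upstream of JUN, lay inside the range between the quartiles of all such peaks, 1.20 to 1.92, and the other 3 lay below it. The part of library depth in these differences was not tested.

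**Figure D3:**
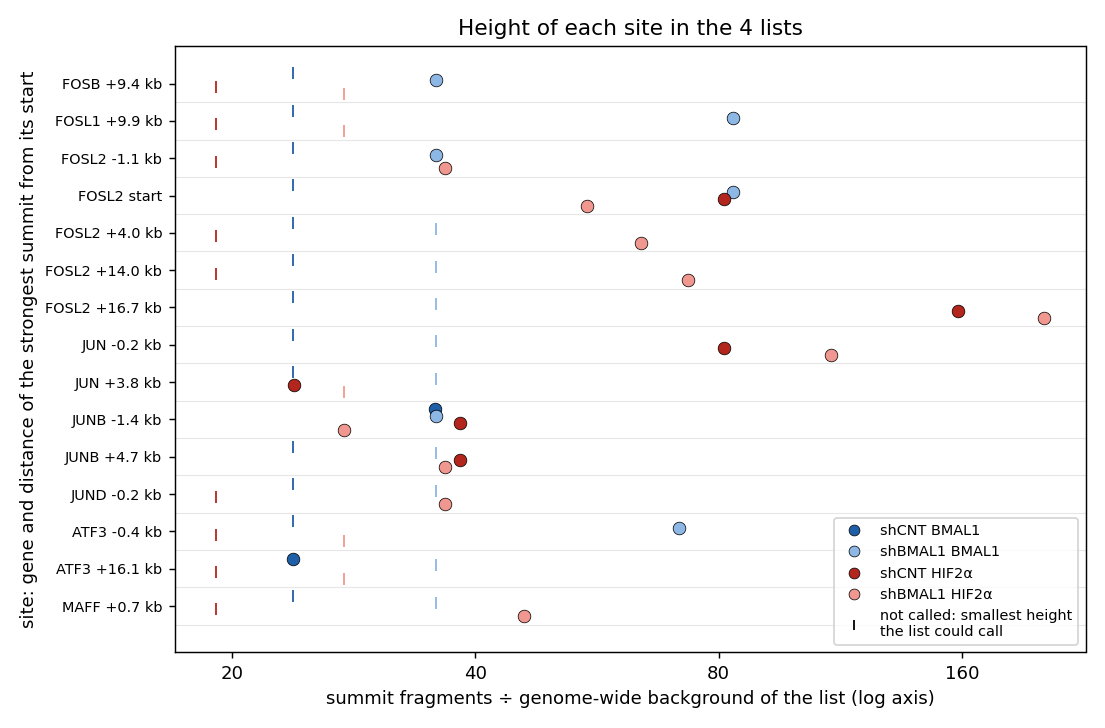
Height of each of the 15 sites, that is summit fragments over the genome-wide background of the list, on a log axis; circles are called peaks, and short bars mark the smallest height that a list without a peak could have called at its genome-wide background. The FOSL2 intron site stands highest at 158 and 202, and the sites called in shCNT alone, at JUN and ATF3, lie near 24 and left of the bars of the matching shBMAL1 list.

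Overlap of the 2 antibodies at these peaks was set beside that over whole lists. In shCNT, 1 of 6 HIF2α peaks overlapped a BMAL1 peak (16.7%, interval 3.01 to 56.4%) and 1 of 2 BMAL1 peaks a HIF2α peak (50%, interval 9.45 to 90.5%), both at the upstream JUNB site, against 24.9% and 25.0% of all peaks. Under shBMAL1, 3 of 10 HIF2α peaks overlapped a BMAL1 peak (30%, interval 10.8 to 60.3%), against 28.4% of all, and 3 of 6 BMAL1 peaks a HIF2α peak (50%, interval 18.8 to 81.2%), against 21.2% of all. These 3 lay upstream of JUNB and at and upstream of the FOSL2 start. Each interval included the share over the whole list. The control library used for calling is not given in the sources used here.

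The place of the peaks varied between the lists, and no difference was tested. Percentiles of the 6 shCNT HIF2α peaks ran from 22.3 to 98.0 with a median of 74.4, and those of the 10 shBMAL1 HIF2α peaks from 1.34 to 97.9 with a median of 45.2. The 2 shCNT BMAL1 peaks were at 4.64 and 61.4. The 6 shBMAL1 BMAL1 peaks had a median of 8.76, and 4 of them lay between 0.481 and 12.1. By construction the median of a whole list is 50, so the HIF2α peaks in shCNT stood mostly in the upper part of their list, those under shBMAL1 around its middle, and the BMAL1 peaks under shBMAL1 mostly at its lower end.

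Motif matches on either strand were sought in the 200 bp centred on each summit. The 24 windows come from 15 sites, and windows at 1 site can share sequence. The intervals and the limit for a share of 0 treat the windows as separate, and so understate the uncertainty. The AP-1 site was present in 4 of 24 windows (16.7%, interval 6.68 to 35.9%), against 15.9% of all 12171 peaks, a share inside the interval. The 4 windows came from 3 places, the FOSL2 intron, the FOSL2 start with both a HIF2α and a BMAL1 summit, and the JUN intron, and 3 of them were among the 6 shCNT HIF2α peaks (50%, interval 18.8 to 81.2%), where the share over the whole list was 13.6%. The BMAL1 window was 1 of 6 under shBMAL1 (16.7%, against 18.3% of that list). None of the 10 shBMAL1 HIF2α windows held the site, against 15.5% of that list, and neither did the 2 of shCNT BMAL1. The shBMAL1 HIF2α peaks at the FOSL2 start and in the FOSL2 intron did hold the same AP-1 matches, more than 100 bp from their summits. The JUN intron match lay outside its shCNT peak. The difference between the 2 HIF2α lists in these windows is therefore not a loss of AP-1 sites from the peaks. The hypoxia core was in 12 of 24 windows (50%, interval 31.4 to 68.6%), against 51.1% of all. No window held an E-box (0 of 24, which allows a share of up to 12.5%, taken as 3 counts of the total), against 6.47% of all peaks. The 2 E-boxes inside member sites, in the FOSL2 intron and downstream of JUNB, were more than 100 bp from a summit. The Sp1 site GGGCGG, common in GC-rich promoters, was in 12 windows (50%, interval 31.4 to 68.6%), against 29.3% of all. The windows of all 4 peaks at the upstream JUNB site are among these 12, so the share is not read as an excess at the genes. TGACGTCA and the CArG box were each in 1 window, at JUND and upstream of JUNB, and in 0.731% and 1.17% of all.

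**Figure D4:**
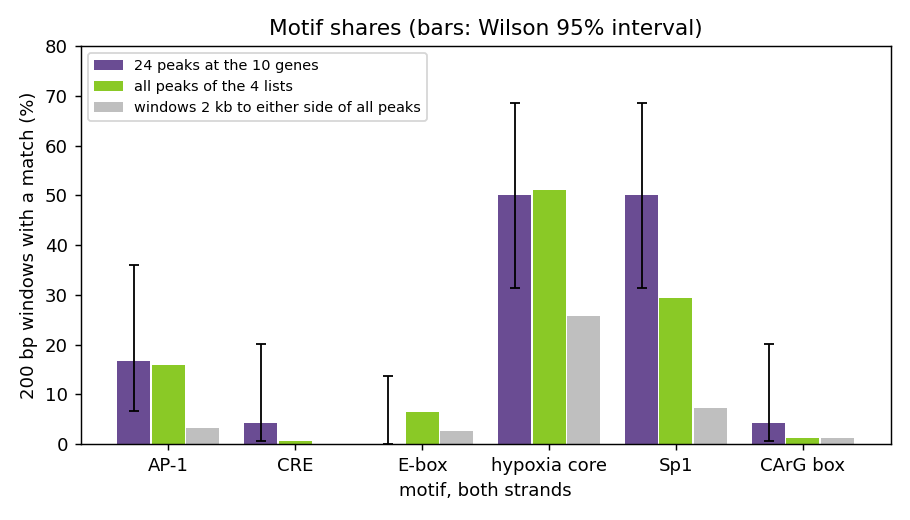
Percentage of summit-centred 200 bp windows that hold a given motif, for the 24 peaks at the 10 genes (purple, with Wilson 95% intervals), all peaks of the 4 lists (green) and windows 2 kb to either side of all peaks (grey). AP-1 and hypoxia shares of the members match those of all peaks within the interval, and no member window has an E-box.

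Peaks at related genes were counted over 2 further lists. Of 11 AP-1 partners and relatives, such as ATF2, BATF, MAFK and NFE2L2, 4 had a peak in any list (36.4%, interval 15.2 to 64.6%), namely ATF7, CREM, MAFK and NFE2L2. None of the 11 had a shCNT HIF2α peak, which allows a share of up to 27.3%, again as 3 counts. Of 19 other immediate early genes, 7 had a peak in any list (36.8%, interval 19.1 to 59.0%), namely DUSP1, ELK1, IER2, IER3, NR4A2, SRF and ZFP36. For shBMAL1 HIF2α alone 6 of the 19 had one (31.6%, interval 15.4 to 54.0%), against 13.6% of all genes, so the excess in that list was not seen for the 10 members alone. IER3 and ZFP36 were the 2 of these that had peaks in all 4 lists, like JUNB. The intervals of both any-list shares include the 30.9% of all protein-coding genes and overlap that of the 10 members.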

How the data were processed

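Paired-end CUT&RUN reads of A498 cells were aligned by the authors to hg19 (GRCh37) with Bowtie2 2.5.3, duplicates were removed, and peaks were called with MACS2 2.2.9.1 at a p-value limit of 1e-05 and a maximum gap of 400 bp, followed by removal of blacklisted regions with bedtools 2.31.1. The pooling of replicates and the control used are not given in the sources used here. Each deposited list gives a fold enrichment (a linear ratio over local background), −log10 p-values and q-values, and a score derived from the p-value. The pileup was solved as the whole number that satisfies both the fold and the Poisson p-value.

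Samples were grouped by shRNA and antibody in their titles. All 12171 peaks fell inside GRCh37 chromosomes. Genes, starts of basic transcripts and annotations came from GENCODE release 44 mapped to GRCh37, and sequences from the GRCh37 genome. Peaks overlapping by at least 1 bp were matched. Intervals are 95% Wilson or, for ratios of pileups, exact binomial. With 1 list per group no p-value was computed. Members, gene lists and alternatives were chosen with earlier results of these data known. All 10 members are named, and of the 2 further lists the genes with peaks. Shares of 0 are given with the limit that 3 counts allow. Limits at local background and the share of all genes under stricter settings were added after seeing the data. Steps were tested on simulated data. Calculations used scipy 1.17.1, numpy 2.4.6 and pysam 0.24.0 under Python 3.11.15.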

Additional observations from a re-analysis of the deposited data

How the results depend on the processing

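No paired analysis was possible because 1 peak list per group was analysed, with no values per replicate; for the same reason no replicate was left out. Among the recomputed values, 76 lay inside the reported share's interval or under 1.5 times from the reported count, and 27 moved further.

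With peaks assigned by nearest start, shCNT BMAL1 had 1 peak at 1 gene (JUNB), kept under shBMAL1 (100%) and shared with HIF2α (100%), and shBMAL1 BMAL1 peaks lay at 3 genes. With a −log10 p of at least 8, genes with a peak numbered 1 for shCNT BMAL1, 2 for shBMAL1 BMAL1 and 3 for shBMAL1 HIF2α, with 1, 2 and 5 peaks; 0% of shCNT BMAL1 peaks were kept, 100% were shared with HIF2α, and the hypoxia core was in 76.9% of windows. With a pileup of at least 5, these genes numbered 1, 3 and 3, with 1, 3 and 6 peaks, 0% were kept, 100% shared, and 68.8% of windows held the core. With lists of equal length, 2350 peaks, shBMAL1 BMAL1 had 2 peaks at 2 genes and 0% of shCNT BMAL1 peaks were kept. In windows of 100 bp, 20.8% held the core. The share of all peaks with the hypoxia core was not computed under these stricter settings or in the shorter windows. The changes in the share with the core are therefore not read as particular to these genes. The HIF2α peaks kept under shBMAL1 fell from 83.3% to 50% with equal lengths or a pileup of at least 5 and to 60% with a −log10 p of at least 8, inside the reported interval. The numbers of genes and peaks for shCNT HIF2α, at FOSL2, JUN and JUNB, stayed within these limits under each alternative run. The stricter settings remove weak peaks by construction; no other cause was tested.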
